A study of Mus musculus with 9 samples.

Results

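A set of 38 immune genes was followed across bone marrow mesenchymal stem cells (BM-MSCs), periosteal skeletal stem cells (P-SSCs) and P-SSCs of a transplanted bone. The members are the protein-coding genes that carry no transcription factor family in the gene table and whose symbols begin with Cd and a digit, H2-, Ifi, Oas, Gbp, Tlr, Ly6, Clec, Fcgr, Fcer or Siglec, and they are 38 of the 8329 genes in the table and of its 3477 protein-coding genes. No member begins with Ly6 or Fcer. Of other genes with such names, 3 of another biotype in the table are given by their values alone, and the rest were not analysed here. By role the members include 10 CD antigens of blood cells, 4 stromal, vascular or broadly expressed CD antigens and 8 interferon-induced genes (4 Gbp, 2 Oas, 1 Ifitm and 1 Ifi). The others are 5 MHC genes, 2 Toll-like receptors, 3 Fc receptors, 2 Siglecs and 4 genes with C-type lectin names.

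RNA sequencing covered 3 groups of 3 libraries each, all from wild-type C57BL/6J mice, young adults by the study's general methods. BM-MSCs came from the marrow and P-SSCs from the periosteum at steady state, labelled day 0, and graft P-SSCs came from the periosteum of a femur 3 days after it had been placed under the skin of the back of a recipient mouse. All groups were isolated fresh and sorted from collagenase and dispase digests as cells without CD45, Ter119 and CD31 that carried CD51 and CD200, and RNA of 2 mice was combined in some replicates. Steady-state P-SSCs were not transplanted, and no transplanted BM-MSCs are among these libraries, so surgery, a new host and time cannot be told apart.

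Toll-like receptors sense microbial products and signal to NF-kB and to interferon genes. Secreted interferon then switches on Oas, Gbp and Ifitm genes, in stromal cells as well as in blood cells. Their products trigger the degradation of viral RNA, attack membranes of intracellular microbes or block virus entry. MHC class II, Siglecs, Fc receptors and many CD antigens belong to leukocytes, whereas CD164 and CD59 are found on many cell types.

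Values are FPKM, fragments scaled to the length of the gene and to the library total, so levels can be compared between genes of different length. Library totals recovered from the smallest steps of the values were 16890241 to 21315438 fragments. A gene was tested when it reached 1 FPKM in at least 3 of the 9 libraries. Of the members, 16 passed this filter, 6 were listed at 0 in all 9 libraries and 16 were above 0 but never reached 1 FPKM. The tests were made with limma over the 1948 genes that passed, on the log2(FPKM + 1) scale, and calls rest on p-values adjusted over all of them by the Benjamini-Hochberg method, with 0.05 as the limit. P-SSC replicate 3 stood apart, with a mean correlation of 0.864 with its own group against 0.909 and 0.915 for the other P-SSC libraries. The sorting antigens CD51, CD200 and CD31 were not analysed here at the RNA level, and Ptprc, which encodes CD45, was at 0 in the P-SSC libraries, at 0.113 to 0.311 FPKM in graft P-SSCs and at 0.326 to 1.35 FPKM in BM-MSCs. Of 21 stromal markers 1 was in the table, Postn, which encodes periostin and which the study uses to mark periosteal cells. Postn was at 90.6 to 125 FPKM in BM-MSCs, 391 to 476 FPKM in P-SSCs and 782 to 879 FPKM in graft P-SSCs.

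The sequences before 4 interferon-induced members are shown because all of them carry an interferon-stimulated response element (ISRE), the DNA motif bound by the factors that interferon activates, although of the 4 Oas1a alone was called in grafts against P-SSCs. They are the 100 bases ahead of the annotated start on the strand of the gene, from RefSeq on GRCm38.p6, and capitals mark matches to GAAANNGAAA or, on the other strand, TTTCNNTTTC. Oas1a lies on the minus strand, with the bases shown at chr5:120907526-120907625. Gbp3 and Gbp7 lie on the plus strand, with the bases at chr3:142559944-142560043 and chr3:142530236-142530335. Ifitm2 lies on the minus strand, with the bases at chr7:140955962-140956061.
Oas1a: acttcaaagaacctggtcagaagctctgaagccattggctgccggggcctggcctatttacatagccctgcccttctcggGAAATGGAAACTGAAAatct
Gbp3: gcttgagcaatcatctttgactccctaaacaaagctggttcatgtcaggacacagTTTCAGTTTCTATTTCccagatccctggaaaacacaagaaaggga
Gbp7: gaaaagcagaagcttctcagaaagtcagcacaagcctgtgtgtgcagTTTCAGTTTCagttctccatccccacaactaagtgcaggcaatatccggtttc
Ifitm2: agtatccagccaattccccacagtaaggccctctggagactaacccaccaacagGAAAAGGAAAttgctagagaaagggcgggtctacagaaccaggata

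Promoter sequences were matched by symbol for 30 of the 38 members and for 14 of the 16 that were tested, Oas2 and Cd79b having no entry. In the 250 bases before the start, the ISRE letters were found on either strand for 6 of the 30 members with a promoter. Counted by promoter and not by gene, 978 of all 32851 held them, or 2.98%. The members were chosen by names that include interferon-induced families, so this is no test of enrichment. Besides the 4 genes shown, the 6 included Cd59a, with a match 187 bases before the start, and Fcgr4, with a match 73 bases before it. Oas1a and Gbp3 each held a pair of overlapping matches, which reached from 20 to 5 bases before the start in Oas1a and from 45 to 30 bases before it in Gbp3. Gbp3 has another annotated start downstream, whose 250 bases held none. The gamma-interferon activated site (GAS), searched as TTCNNNGAA, which reads the same on both strands, was found for 3 members (Oas1a, Gbp7 and Ifi202b) and in 7.02% of all promoters. No GAS match of Oas1a or Gbp7 overlapped an ISRE match. These matches describe letters in a window and not binding.

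**Figure D1:**
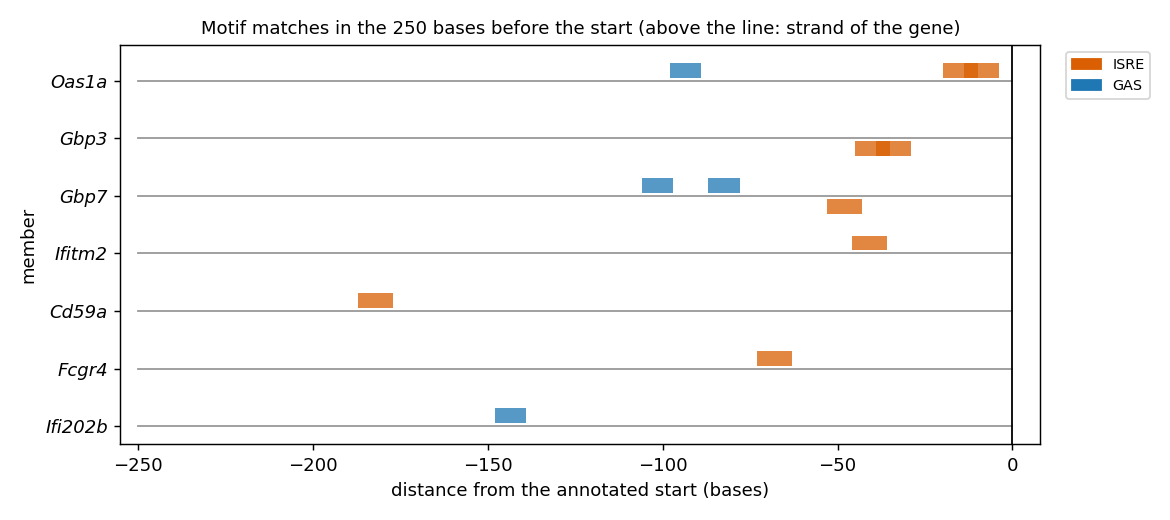
Matches to the ISRE (GAAANNGAAA, orange) and the GAS (TTCNNNGAA, blue) in the 250 bases before the annotated start of the 7 members that hold either, by distance from the start in bases; matches above a line are on the strand of the gene. The ISRE matches of Oas1a, Gbp3, Gbp7 and Ifitm2 all lie within 53 bases of the start.

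Oas1a, a 2'-5'-oligoadenylate synthetase, was the tested member with the largest log2 difference of graft P-SSCs above both steady-state groups. Oas2, of the same family, passed the filter only through its graft libraries and is not ranked. The products of both genes make the messenger that activates RNase L when double-stranded RNA is present. Oas1a (ENSMUSG00000052776, chr5:120896256-120907521, minus strand, GRCm38) was at 7.32, 10.9 and 8.26 FPKM in BM-MSCs, at 12.5, 5.14 and 2.62 FPKM in P-SSCs and at 52.6, 42.9 and 34.6 FPKM in graft P-SSCs. Every graft library lay above every steady-state library, and the steady-state groups overlapped. The mean of 43.4 ± 8.98 FPKM (SD, n = 3) in grafts was 6.41 times that of P-SSCs (6.77 ± 5.16) and 4.92 times that of BM-MSCs (8.81 ± 1.83). On the log2(FPKM + 1) scale Oas1a rose by 2.71 ± 0.43 (SE) from P-SSCs to grafts (adjusted p = 0.0012) and was 2.17 ± 0.43 higher in grafts than in BM-MSCs (adjusted p = 0.0035). The difference between P-SSCs and BM-MSCs was -0.53 ± 0.43 and was not called (adjusted p = 0.43).

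Oas2 (ENSMUSG00000032690, chr5:120730333-120749853, minus strand) was at 0 in the 3 BM-MSC libraries, at 0.0367, 0 and 0 FPKM in P-SSCs and at 4.41, 2.79 and 2.30 FPKM in graft P-SSCs. In fragments the graft libraries held 215, 164 and 114, and P-SSC replicate 1 held 2. Oas2 passed the filter only through its graft libraries, so a difference had to be found. Expression in grafts was at least 52.2-fold higher than BM-MSCs, taking 3 fragments in each BM-MSC library as the floor, and 245-fold higher than P-SSCs by summed fragments (95% exact interval 67.4 to 2025, counting error only). On the log2(FPKM + 1) scale, which understates changes of low genes, the rise was 2.01 ± 0.22 from P-SSCs (adjusted p = 0.00016) and 2.03 ± 0.22 from BM-MSCs (adjusted p = 9.8e-05). Reads of Oas1a may be shared with near-identical members of the Oas1 cluster, so its level is uncertain in that respect. Oas1b, annotated as a polymorphic pseudogene and therefore no member, was at 1.07 to 1.89 FPKM in the graft libraries and at 0 to 2.45 FPKM in the other libraries.

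The guanylate-binding proteins, GTPases of the interferon response, were not called higher in grafts, unlike Oas1a, though the difference between these genes was not tested. Gbp3 (ENSMUSG00000028268, chr3:142560026-142573209, plus strand) was at 38.4, 23.2 and 20.9 FPKM in BM-MSCs, at 31.3, 9.41 and 7.45 FPKM in P-SSCs and at 31.9, 23.8 and 23.2 FPKM in grafts. The 3 groups overlapped, replicate 1 was the highest of each group, and no comparison was called (differences of -0.96 ± 0.47 from BM-MSCs to P-SSCs, 0.93 ± 0.47 from P-SSCs to grafts and -0.03 ± 0.47 from BM-MSCs to grafts, adjusted p = 0.19, 0.16 and 0.97). Without P-SSC replicate 1 both comparisons with P-SSCs were called, at -1.55 and 1.53 on the log2 scale. Gbp7 (chr3:142530342-142550149, plus strand), its neighbour, was at 6.45, 5.35 and 6.03 FPKM in BM-MSCs, at 4.13, 2.46 and 2.44 FPKM in P-SSCs and at 3.11, 3.42 and 2.24 FPKM in grafts. All 6 periosteal libraries were below all BM-MSC libraries, and P-SSCs and grafts overlapped. Gbp7 was lower in grafts than in BM-MSCs by a log2 value of -0.83 ± 0.30 (adjusted p = 0.047), a call lost when any 1 library of either group was left out (-0.93 to -0.70). The difference of P-SSCs from BM-MSCs was -0.82 ± 0.30 and was not called (adjusted p = 0.077), but it was called without P-SSC replicate 1 (-1.01), by voom on whole fragments (-1.01, adjusted p = 0.038) and without a trend (adjusted p = 0.035). Gbp8 and Gbp10 did not pass the filter, with at most 28 fragments in a library, and reads may be shared within this family.

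Ifitm2, a membrane protein that restricts virus entry, had the highest mean FPKM of the 38 members in each of the 3 groups. It was at 303, 311 and 249 FPKM in BM-MSCs, at 295, 305 and 169 FPKM in P-SSCs and at 204, 192 and 257 FPKM in grafts, and the groups overlapped. No comparison was called, with differences of -0.21 ± 0.24, -0.19 ± 0.24 and -0.40 ± 0.24 (adjusted p = 0.59, 0.56 and 0.19). Without P-SSC replicate 3, its lowest library, the grafts were called lower than P-SSCs by a log2 value of -0.47 (adjusted p = 0.042), and lower than BM-MSCs by -0.40 (adjusted p = 0.043), and the difference of P-SSCs from BM-MSCs was 0.07. Ifi202b was listed at 0 in all 9 libraries.

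**Figure D2:**
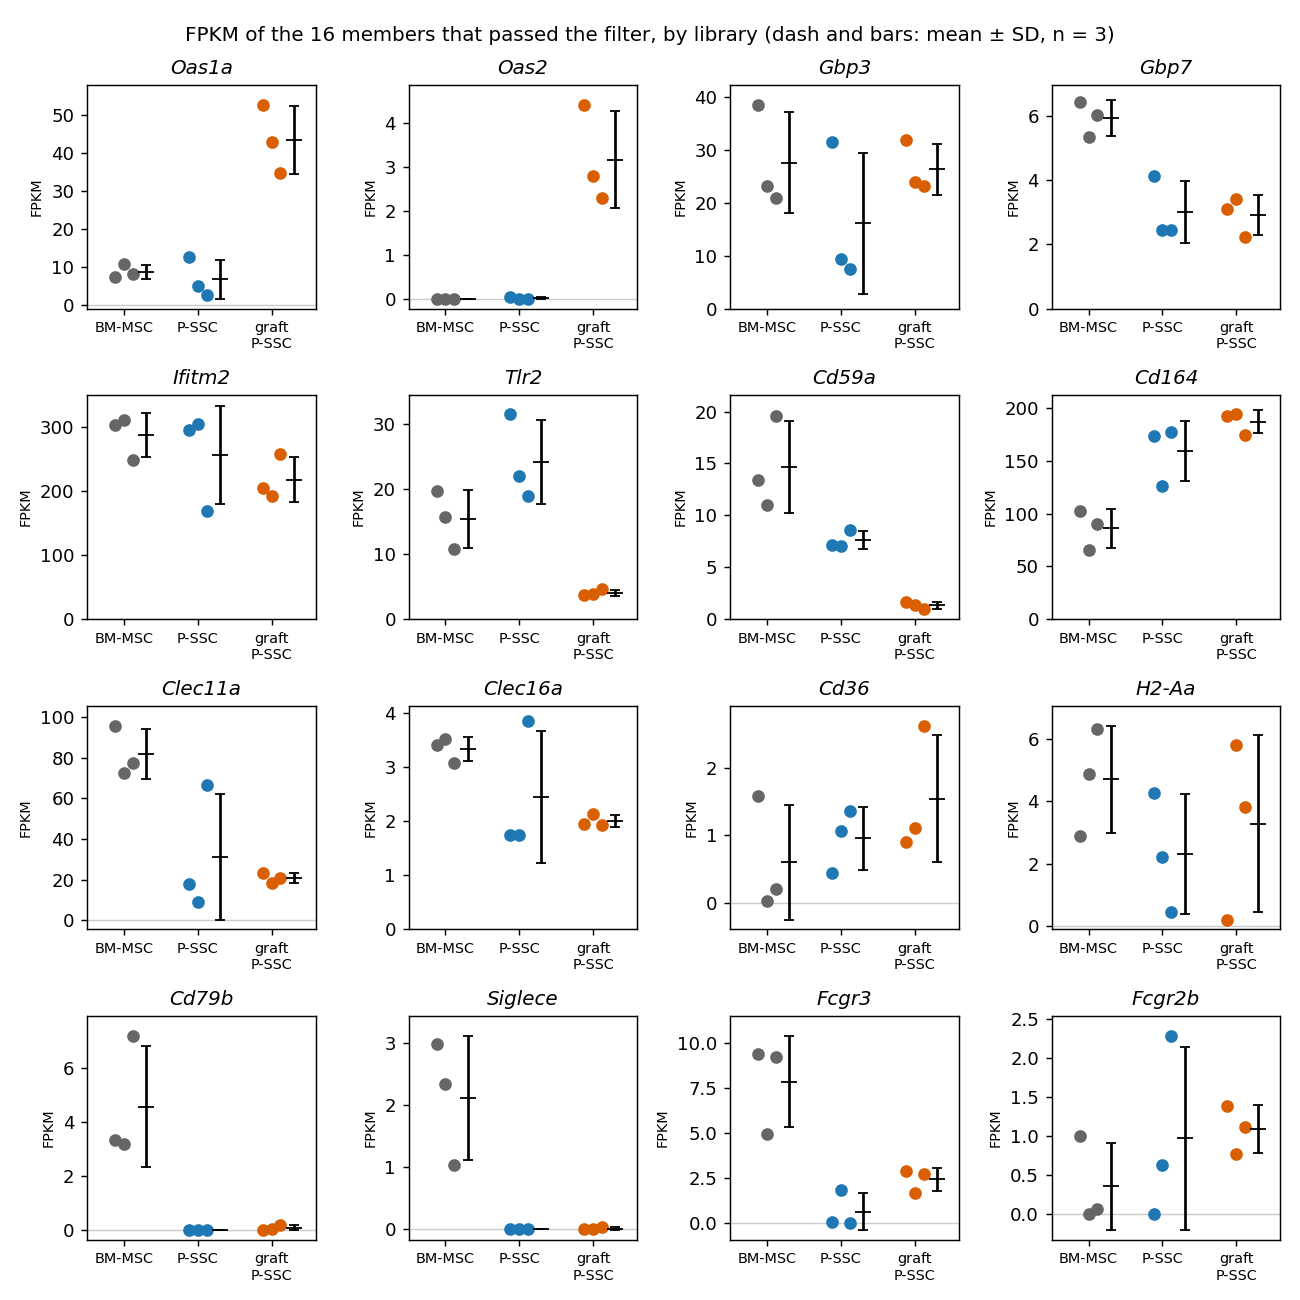
FPKM of the 16 members that passed the filter, 1 panel per gene with its own linear axis; points are libraries in the order of their replicate numbers and the dash with bars is the mean ± SD (n = 3). Oas1a reaches 34.6 to 52.6 FPKM in grafts alone, Tlr2 and Cd59a are lowest in the 3 graft libraries, and Cd79b and Siglece are at 0 in the 3 P-SSC libraries.

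Other genes of the interferon pathway that are no members were read from a list of 54, of which 9 were in the table and 8 were tested. In graft P-SSCs against P-SSCs 1 rose, the nucleic acid sensor Zbp1, from 16.4, 11.2 and 4.70 FPKM to 46.0, 37.9 and 36.7 FPKM (log2 difference 1.94 ± 0.43, adjusted p = 0.0069). None fell by limma, 0 at an unadjusted p under 0.05 and 0 by voom, beside 22.6% higher and 11.5% lower over all genes tested. Mx1, which did not pass the filter, was at 0 in the 6 steady-state libraries and at 1.29, 1.07 and 0.757 FPKM in the grafts. In P-SSCs against BM-MSCs Mx2, a relative of Mx1, rose by 1.80 ± 0.47 on the log2 scale and the exonuclease Isg20 fell by 1.24 ± 0.39 (adjusted p = 0.018 and 0.043). The call of Isg20 was lost with median-of-ratios scaling and by voom (adjusted p = 0.076 and 0.059). In grafts against BM-MSCs Cmpk2 and Socs1 rose and Isg20 fell, and the calls of Cmpk2 and Socs1 were lost with median-of-ratios scaling (adjusted p = 0.056 and 0.053), while voom also called Mx2 and Zbp1 higher (adjusted p = 0.044 and 0.032). The median log2 difference of the 8 was -0.40, 0.67 and 1.04 in the order P-SSCs against BM-MSCs, grafts against P-SSCs and grafts against BM-MSCs, beside -0.06, 0.26 and 0.28 over all genes tested. Over all genes this upward shift in the grafts was smaller with median-of-ratios scaling (medians of 0.003, 0.02 and 0.08), and the calls of Oas1a and Zbp1 in grafts against P-SSCs held under it (log2 2.39 and 1.62, adjusted p = 0.0034 and 0.023).

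Tlr2, the receptor for bacterial lipoproteins, fell in graft P-SSCs. Tlr2 (ENSMUSG00000027995, chr3:83836272-83841767, minus strand) was at 19.8, 15.7 and 10.8 FPKM in BM-MSCs, at 31.5, 22 and 19 FPKM in P-SSCs and at 3.62, 3.89 and 4.54 FPKM in grafts. All graft libraries lay below all others, while BM-MSCs and P-SSCs overlapped. The graft mean of 4.02 ± 0.475 FPKM was 0.166 times that of P-SSCs (24.1 ± 6.52) and 0.260 times that of BM-MSCs (15.4 ± 4.47). The log2 differences were -2.30 ± 0.29 from P-SSCs and -1.68 ± 0.29 from BM-MSCs (adjusted p = 0.00034 and 0.0016), and P-SSCs against BM-MSCs gave 0.62 ± 0.29 (adjusted p = 0.17, not called). Tlr9, the sensor of CpG DNA and the other Toll-like receptor in the table, held 2 fragments in BM-MSC replicate 3 and none elsewhere.

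Downstream of the receptors, 9 of 36 genes of a Toll-like receptor signalling list were in the table and 8 were tested. In grafts against P-SSCs 4 rose by limma and none fell, with 1 lower at an unadjusted p under 0.05, where 22.6% of all genes tested rose and 11.5% fell. The 1 lower gene was Rela, an NF-kB subunit, at -0.66 ± 0.23 on the log2 scale (adjusted p = 0.051), which was called lower with median-of-ratios scaling (-0.98, adjusted p = 0.011) and was not among the genes tested by voom, which called 0 of the others lower. The genes that rose were the chemokines Cxcl1 and Cxcl2, the NF-kB inhibitor Tnfaip3 and the acute-phase gene Saa3. Cxcl1 was at 2.98 to 3.92 FPKM in BM-MSCs, 60.8 to 209 FPKM in P-SSCs and 321 to 380 FPKM in grafts, and its call in grafts against P-SSCs (log2 1.51 ± 0.37, adjusted p = 0.011) was lost with median-of-ratios scaling (adjusted p = 0.052). Saa3 was at 11.2 to 39.3 FPKM in BM-MSCs, 0 to 1.51 FPKM in P-SSCs and 83.4 to 138 FPKM in grafts (log2 6.26 ± 0.52 against P-SSCs, adjusted p = 2.5e-05). In P-SSCs against BM-MSCs 4 rose (Cxcl1, Cxcl2, Il6 and Irak3) and Saa3 fell, beside 9.8% higher and 14.4% lower over all genes, and in grafts against BM-MSCs 6 rose and Rela fell, beside 25.7% and 16.2%. The call of Cxcl2 in P-SSCs was lost by voom (adjusted p = 0.058). The median log2 difference of the 8 was 0.73, 0.94 and 3.25 in P-SSCs against BM-MSCs, grafts against P-SSCs and grafts against BM-MSCs, beside -0.06, 0.26 and 0.28 over all genes. Most of these genes also answer to cytokines and injury.

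The broadly expressed surface antigens Cd59a and Cd164 moved in opposite directions between the marrow and the graft. Cd59a (ENSMUSG00000032679, chr2:104095801-104115354, plus strand), which encodes an inhibitor of the complement membrane attack complex, was at 13.4, 11 and 19.6 FPKM in BM-MSCs, at 7.13, 7.08 and 8.62 FPKM in P-SSCs and at 1.62, 1.35 and 0.920 FPKM in grafts. The 3 groups did not overlap. The graft mean of 1.30 ± 0.355 FPKM was 0.171 times that of P-SSCs (7.61 ± 0.875) and 0.0884 times that of BM-MSCs (14.7 ± 4.44). On the log2 scale grafts differed by -1.91 ± 0.30 from P-SSCs (adjusted p = 0.0011) and by -2.75 ± 0.30 from BM-MSCs (adjusted p = 9.8e-05). The step from BM-MSCs to P-SSCs was -0.83 ± 0.30 and missed the threshold (adjusted p = 0.076), and it was called without a mean-variance trend in the fit (adjusted p = 0.041).

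Cd164 (ENSMUSG00000019818, chr10:41519414-41531048, plus strand), a sialomucin of adhesion and homing, was at 102, 65.5 and 90.1 FPKM in BM-MSCs, at 173, 126 and 178 FPKM in P-SSCs and at 192, 195 and 174 FPKM in grafts. All periosteal libraries were above all BM-MSC libraries, and P-SSCs and grafts overlapped. The means were 86.0 ± 18.8, 159 ± 28.3 and 187 ± 11 FPKM (n = 3 each). Cd164 rose by 0.89 ± 0.20 on the log2 scale in P-SSCs and by 1.14 ± 0.20 in grafts relative to BM-MSCs (adjusted p = 0.0095 and 0.0018), while grafts and P-SSCs differed by 0.25 ± 0.20 (adjusted p = 0.38), a value that became -0.08 with median-of-ratios scaling. Its relative Cd164l2 held 1 fragment in 1 graft library.

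Cd36, the scavenger receptor and fatty acid transporter of endothelium, adipocytes and macrophages, was low throughout. It was at 1.58, 0.0212 and 0.196 FPKM in BM-MSCs, at 0.443, 1.05 and 1.36 FPKM in P-SSCs and at 0.901, 1.10 and 2.62 FPKM in grafts. The groups overlapped, and the differences of 0.38 ± 0.40, 0.35 ± 0.40 and 0.73 ± 0.40 were not called (adjusted p = 0.56, 0.55 and 0.17). In BM-MSCs 67 of its fragments lay in replicate 1, against 1 and 9 in the others, and without replicate 1 the grafts were called higher than BM-MSCs (log2 1.14).

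The members with C-type lectin names and a stromal or broad expression were Clec11a and Clec16a. Clec11a (ENSMUSG00000004473, chr7:44302687-44306902, minus strand), an osteogenic growth factor secreted by marrow stroma, was at 95.5, 72.3 and 77.3 FPKM in BM-MSCs, at 18, 9.06 and 66.3 FPKM in P-SSCs and at 23.3, 18.4 and 20.7 FPKM in grafts. All periosteal libraries were below all BM-MSC libraries, but P-SSC replicate 3 stood close to the marrow. The log2 differences from BM-MSCs were -1.81 ± 0.55 in P-SSCs and -1.92 ± 0.55 in grafts (adjusted p = 0.039 and 0.020). Without P-SSC replicate 3 the P-SSC value was -2.57 (adjusted p = 8.0e-05), and without P-SSC replicate 2 it was -1.20 and not called (adjusted p = 0.096). Leaving out any other library ended the P-SSC call as well (-1.89 to -1.66). The graft call was lost without BM-MSC replicate 1, 2 or 3 or graft replicate 2 or 3 (-2.0 to -1.81). Grafts and P-SSCs differed by -0.11 ± 0.55 (adjusted p = 0.89), which became 0.65 without P-SSC replicate 3. Clec16a, an endosomal protein of autophagy, was at 3.08 to 3.51 FPKM in BM-MSCs, 1.74 to 3.86 FPKM in P-SSCs and 1.93 to 2.14 FPKM in grafts and was not called, but with quantile normalization it was called lower in grafts than in BM-MSCs (log2 -0.78, adjusted p = 0.040).

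Of the members that belong to blood cells, Cd79b, Siglece and Fcgr3 were higher in BM-MSCs than in P-SSCs, in cells sorted as CD45-negative. H2-Aa and Fcgr2b were not called in any comparison. In bulk libraries fewer cells of a type and less RNA per cell cannot be told apart. Cd79b (ENSMUSG00000040592, chr11:106311341-106314762, minus strand), the signalling chain of the B cell receptor, was at 3.34, 3.20 and 7.18 FPKM in BM-MSCs, at 0 in all P-SSC libraries and at 0, 0.0357 and 0.170 FPKM in grafts. BM-MSCs were at least 37.6-fold higher than P-SSCs, at a floor of 3 fragments in each P-SSC library, and 68.6-fold higher than grafts by summed fragments (325 against 5, 95% exact interval 29.1 to 213). Siglece (ENSMUSG00000030474, chr7:43651070-43660161, minus strand), an inhibitory sialic acid receptor of myeloid cells, was at 2.98, 2.34 and 1.03 FPKM in BM-MSCs, at 0 in P-SSCs and at 0, 0 and 0.0438 FPKM in grafts. BM-MSCs were at least 16.9-fold higher than P-SSCs, and the ratio to grafts was 152 (144 fragments against 1, 95% exact interval 26.9 to 6045). Both genes passed the filter only through BM-MSCs and so had to differ, and both were called lower in P-SSCs (log2 -2.41 ± 0.28 for Cd79b and -1.59 ± 0.25 for Siglece, adjusted p = 0.00016 and 0.0012) and in grafts (-2.31 ± 0.28 and -1.57 ± 0.25, adjusted p = 0.00017 and 0.00099). Neither was called between grafts and P-SSCs.

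Fcgr3 (ENSMUSG00000059498, chr1:171051174-171064935, minus strand), an activating receptor for immunoglobulin G on macrophages, neutrophils and NK cells, was at 9.39, 4.94 and 9.17 FPKM in BM-MSCs, at 0.0448, 1.80 and 0 FPKM in P-SSCs and at 2.85, 1.66 and 2.71 FPKM in grafts. BM-MSCs lay above all other libraries, and P-SSC replicate 2 lay within the graft range. Fcgr3 fell by 2.58 ± 0.44 on the log2 scale in P-SSCs (adjusted p = 0.0019). In grafts it was lower than in BM-MSCs by -1.35 ± 0.44 (adjusted p = 0.035), a call lost without graft replicate 1, 2 or 3 or BM-MSC replicate 1 or 3 (-1.45 to -1.18) and by voom on whole fragments (adjusted p = 0.21). Between P-SSCs and grafts the difference was 1.24 ± 0.44 and missed the threshold (adjusted p = 0.058), while voom on whole fragments called it (log2 4.04, adjusted p = 0.043), as did a pseudocount of 0.1 (adjusted p = 0.045) and leaving out P-SSC replicate 2 (log2 1.72). Fcgr2b, the inhibitory receptor, was at 0 to 1.0 FPKM in BM-MSCs, 0 to 2.27 FPKM in P-SSCs and 0.764 to 1.38 FPKM in grafts and was not called. Reads may be shared between Fcgr genes. H2-Aa, the alpha chain of an MHC class II molecule and the single class II gene in the table, was at 2.90, 4.88 and 6.31 FPKM in BM-MSCs, at 4.27, 2.21 and 0.451 FPKM in P-SSCs and at 0.208, 5.80 and 3.82 FPKM in grafts, with overlapping groups and no call.

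Some marker genes of blood cells moved with these members and others did not. Of 19 macrophage and monocyte markers 6 were in the table, Fcgr3 among them, and their summed FPKM was 165 to 628 in BM-MSCs, 14.5 to 74.2 in P-SSCs and 35.3 to 96.4 in grafts, most of it Lyz2. The transcription factor Spi1 was at 2.43 to 9.95 FPKM in BM-MSCs, 0 to 0.125 FPKM in P-SSCs and 0.940 to 1.76 FPKM in grafts, Adgre1, which encodes F4/80, was at 0.0342 to 3.17 FPKM in BM-MSCs, 0 in P-SSCs and 0.907 to 2.75 FPKM in grafts, and Csf1r, the receptor of macrophage colony-stimulating factor, was at 0 to 2.68 FPKM in BM-MSCs, 0.248 to 0.835 FPKM in P-SSCs and 5.57 to 6.31 FPKM in grafts. Of the 5 tested, 3 were called lower in P-SSCs than in BM-MSCs (Lyz2, Spi1 and Fcgr3) and 3 higher in grafts than in P-SSCs (Csf1r, Adgre1 and Spi1), the calls of Adgre1 and Spi1 in grafts being lost with median-of-ratios scaling (adjusted p = 0.061 and 0.055). Over all genes tested 14.4% were lower and 22.6% higher in these comparisons. Voom also called Adgre1 lower in P-SSCs (adjusted p = 0.024). In grafts against BM-MSCs, where 16.2% of all genes were lower and 25.7% higher, Lyz2, Spi1 and Fcgr3 were called lower. The calls of Spi1 and Fcgr3 were lost by voom (adjusted p = 0.084 and 0.21). Csf1r was called higher by limma (log2 2.07 ± 0.45, adjusted p = 0.0057) and was not among the genes tested by voom. Adgre1 differed by 0.17 ± 0.50 (adjusted p = 0.80). Of 12 B lymphocyte markers 4 were in the table, Cd79b among them, with sums of 13 to 39 in BM-MSCs, 5.71 to 25.0 in P-SSCs and 0.364 to 0.724 in grafts. Most of that sum was Ighm, which was at 5.71 to 24.6 FPKM in P-SSCs, where Cd79b was at 0. Ighm was not called between P-SSCs and BM-MSCs (log2 -0.37 ± 0.54, adjusted p = 0.68) and was lower in grafts than in either group (log2 -3.29 ± 0.54 and -3.67 ± 0.54, adjusted p = 0.0014 and 0.00058). Of 13 neutrophil markers 3 were in the table, with sums of 3.33 to 320 in BM-MSCs, 0 in P-SSCs and 1.03 to 1.75 in grafts, and Mpo was at 292 FPKM in BM-MSC replicate 1 and at 0 in the other BM-MSC libraries and was called in no comparison. The 1 erythroid marker of 12 in the table, Hba-a2, was at 618 to 2200 FPKM in BM-MSCs, 2.13 to 20.2 FPKM in P-SSCs and 0.531 to 3.67 FPKM in grafts. Of 15 T and NK lymphocyte markers 2 were in the table, Klrb1c at 0 throughout and the member Cd247 with 1 fragment in all. None of 10 megakaryocyte and 15 endothelial markers was in the table. It holds 8329 genes, against 55450 in the reference annotation, so absence of a gene from it says nothing about expression. The part of other cells in the member values was not tested.

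**Figure D3:**
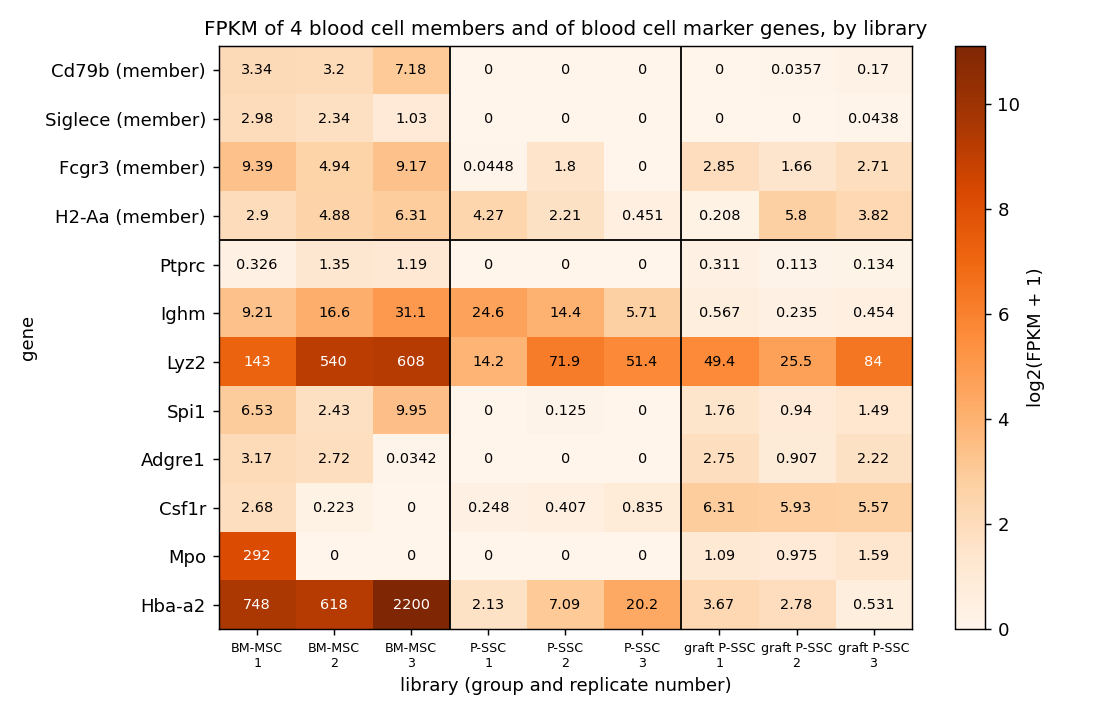
FPKM of 4 blood cell members (above the line) and 8 marker genes of blood cells (below it) in the 9 libraries, with the colour on a log2(FPKM + 1) scale and the FPKM written in each cell. BM-MSC libraries hold the highest Hba-a2, Spi1, Cd79b, Siglece and Fcgr3, and Csf1r is highest in the 3 graft libraries at 5.57 to 6.31 FPKM.

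The 22 members that did not pass the filter were mostly antigens of blood cells, and the highest of them reached 0.867 FPKM (Cd27 in BM-MSC replicate 2). Cd69, an early activation antigen of lymphocytes, held 20, 17 and 11 fragments in the BM-MSC libraries, none in P-SSCs and 4, 0 and 0 in grafts. Siglec1 (CD169) and Fcgr4, both of macrophages and monocytes, held most of their fragments in grafts. Siglec1 held 22, 9 and 9 fragments there, 4 in BM-MSCs and none in P-SSCs, and Fcgr4 held 7, 10 and 7 there, none in BM-MSCs and 1 in P-SSCs. The B cell antigens Cd72 and Cd180 held 24 and 16 fragments over all libraries, with 14 and 9 of them in a single BM-MSC library each. Gbp8 held 28 of its 53 fragments in P-SSC replicate 1. The dendritic cell costimulator Cd86 held 2 fragments in all. Of the 4 MHC class I members, all outside the classical group, H2-M2 and H2-M5 were at 0 and H2-M10.6 and H2-T3 held 1 and 2 fragments. Cd300ld4, Cd300ld5 and Clec4a4 were at 0. In a fit with no filter, over 3609 genes and with 32 members tested, 3 of these low members were called. Over all 3609 genes that fit called 435 in P-SSCs against BM-MSCs, 665 in grafts against P-SSCs and 774 in grafts against BM-MSCs. Cd69 was lower in P-SSCs and in grafts than in BM-MSCs (log2 -0.61 ± 0.092 and -0.55 ± 0.092, adjusted p = 0.0031 and 0.0038), Fcgr4 was higher in grafts than in P-SSCs and BM-MSCs (0.39 ± 0.042 and 0.41 ± 0.042, adjusted p = 0.00057 and 0.0003), and Siglec1 was higher in grafts than in P-SSCs (0.20 ± 0.058, adjusted p = 0.046) and was not called against BM-MSCs (0.18 ± 0.058, adjusted p = 0.060). At 0 fragments a library allows up to 3, so the members at 0 were not detectable at this depth. The intervals and floors cover counting error only.

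**Figure D4:**
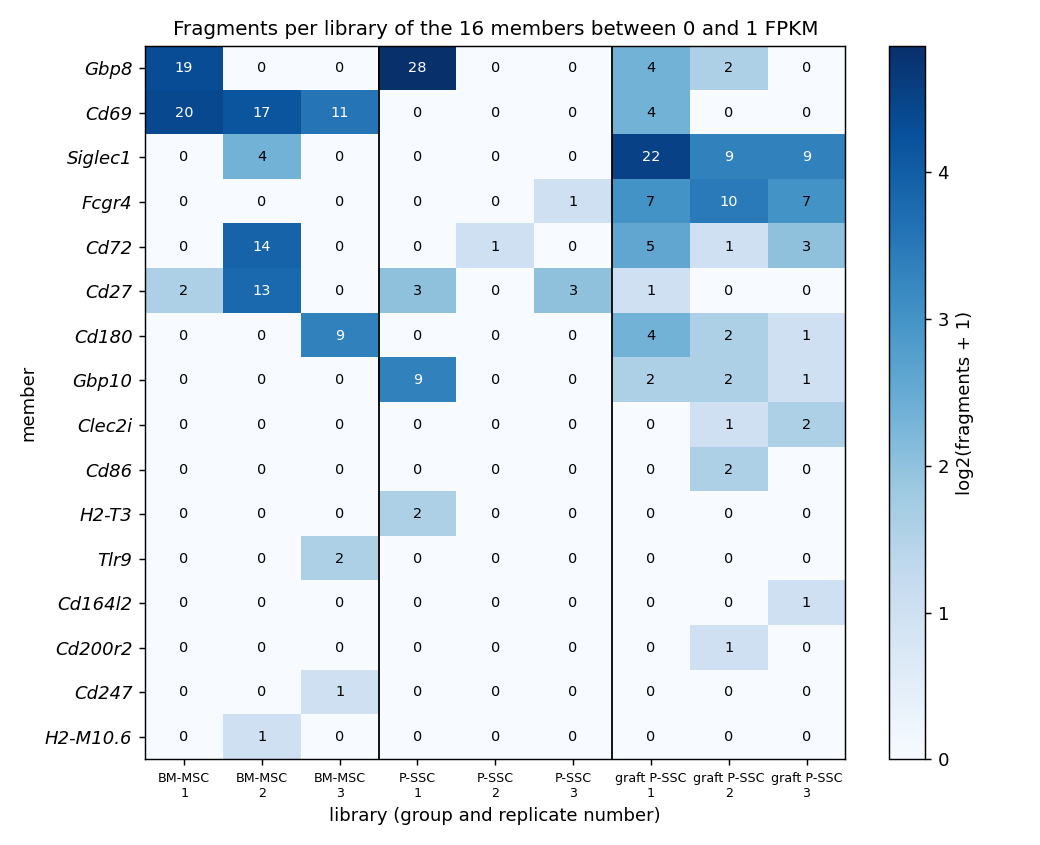
Fragments per library of the 16 members that were above 0 but never reached 1 FPKM, ordered by their sum, with the count written in each cell and the colour on a log2(fragments + 1) scale. Cd69 is in the 3 BM-MSC libraries, and Siglec1 and Fcgr4 are in the 3 graft libraries.

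Among antigen presentation genes that are no members, 3 of 22 were in the table and tested. The immunoproteasome subunit Psmb10 fell from 329 to 497 FPKM in BM-MSCs to 84.0 to 235 FPKM in P-SSCs (adjusted p = 0.022) and was at 86.1 to 91.8 FPKM in grafts, lower than in BM-MSCs (log2 -2.10 ± 0.34, adjusted p = 0.0011). The proteasome activator Psme1 fell in grafts against P-SSCs (log2 -1.03 ± 0.24, adjusted p = 0.0091) and against BM-MSCs (log2 -1.20 ± 0.24, adjusted p = 0.0036), and P-SSCs and BM-MSCs differed by -0.17 ± 0.24 (adjusted p = 0.68). The endosomal protease Lgmn fell in P-SSCs against BM-MSCs (log2 -1.50 ± 0.27, adjusted p = 0.0028) and was higher in grafts than in P-SSCs (log2 1.0 ± 0.27, adjusted p = 0.019), and grafts and BM-MSCs differed by -0.50 ± 0.27 (adjusted p = 0.17). The calls of Psmb10 in P-SSCs and of Lgmn in grafts against P-SSCs were lost with median-of-ratios scaling (adjusted p = 0.065 and 0.14). The median log2 difference of the 3 was -1.27, -0.83 and -1.20 in P-SSCs against BM-MSCs, grafts against P-SSCs and grafts against BM-MSCs, beside -0.06, 0.26 and 0.28 over all genes.

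Counted over the 16 tested members, 5 were called in P-SSCs against BM-MSCs, where 24.2% of all genes were called. Of these 1 was higher (Cd164) and 4 were lower (Cd79b, Siglece, Fcgr3 and Clec11a), beside 9.8% higher and 14.4% lower over all genes. In grafts against P-SSCs 4 were called, where 34.1% of all genes were. These were Oas1a and Oas2, higher, and Tlr2 and Cd59a, lower, beside 22.6% higher and 11.5% lower over all genes. In grafts against BM-MSCs 10 were called, where 41.9% of all genes were. Of these 3 were higher (Oas1a, Oas2 and Cd164) and 7 were lower (Tlr2, Cd59a, Gbp7, Clec11a, Cd79b, Siglece and Fcgr3), beside 25.7% higher and 16.2% lower over all genes. Oas2, Cd79b and Siglece passed the filter only through the group where they were high, so these counts are no measure of the members as a set. The median log2 difference of the 16 was -0.67, 0.16 and -0.61, beside -0.06, 0.26 and 0.28 over all genes. The 3 comparisons share libraries. With median-of-ratios scaling the calls over all genes were split into 311 higher and 302 lower in grafts against P-SSCs, in place of 441 and 224, and into 387 and 364 in grafts against BM-MSCs, in place of 501 and 315.

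**Figure D5:**
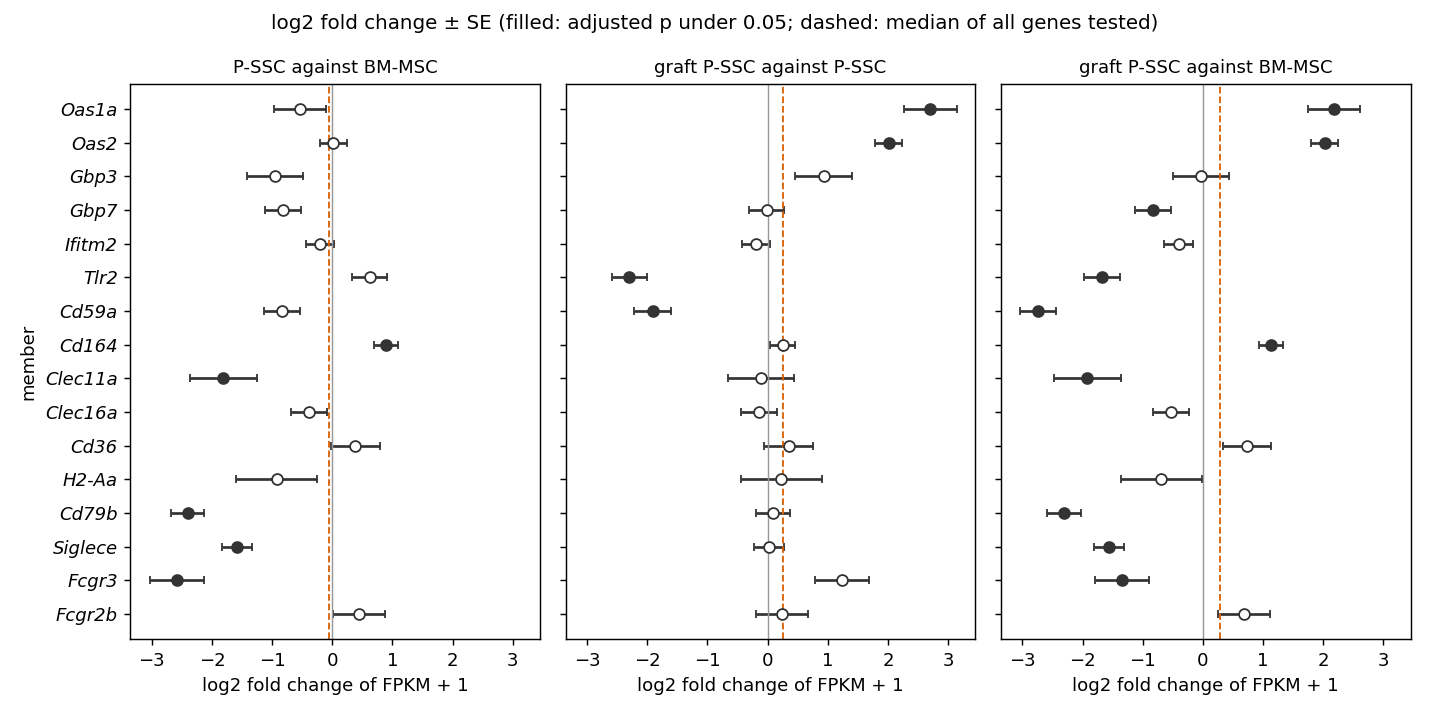
Differences in log2(FPKM + 1) ± SE of the 16 tested members in the 3 comparisons, from 1 limma fit of 9 libraries; filled points have an adjusted p under 0.05, and the dashed line is the median of all 1948 genes tested (-0.06, 0.26 and 0.28). Oas1a and Oas2 are the filled points above 0, and Tlr2 and Cd59a those below it, in grafts against P-SSCs.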

How the data were processed

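Poly-A RNA of 9 libraries of sorted mouse cells (3 BM-MSC, 3 P-SSC and 3 graft P-SSC) was sequenced on an Illumina instrument. Per the labels and methods, the authors mapped reads to GRCm38 with STAR 2.6.1d, and the submitters' processing notes also name CASAVA, fastp and featureCounts 1.5.0-p3. The deposited values are FPKM, divided by gene length and library total and not normalized further. The labels name both directional and non-directional library chemistry and do not say which was used for a library, so reads of overlapping antisense genes cannot be told apart. Fragments were recovered as FPKM times mean transcript length and library total. They were whole within 0.01 in all libraries for 3443 of 3609 genes above 0 (95.4%), and for 37 of the 38 members, H2-Aa being the exception. Totals of 16890241 to 21315438 fragments set the precision.

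Groups came from the titles. FPKM were changed to log2(FPKM + 1), a pseudocount of 1, and genes with at least 1 FPKM in at least 3 libraries (1948 of 8329) were tested with limma 3.58.1 (lmFit, contrasts, eBayes with a trend, two-sided) in R 4.3.3, in 1 fit of 9 libraries, and adjusted by Benjamini-Hochberg over all of them. The study states that each replicate held RNA of distinct mice. A permutation test of 3 against 3 cannot go below p = 0.1 and was not used. Exact binomial intervals (95%) used scipy 1.17.1 in Python 3.11.15. Alternatives were other pseudocounts, filters, scalings and fits, leaving out each library, and voom on the recovered fragments, which was chosen after seeing the data.

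Named were tested members that averaged 10 FPKM or more in a group or were called, Cd36, and low members that define blood cells; further members are named where they carry a value in the text. Members and lists were chosen with earlier results of these data known. Lists of pathway and marker genes were written by hand. A gene of the interferon list is counted in the list's size and median but is not reported here.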

Additional observations from a re-analysis of the deposited data

How the results depend on the processing

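Over 19 alternatives, 15 of the 19 member calls kept their direction and stayed past the threshold in each alternative in which the gene was tested, but 6 of the 15, those of Oas2, Cd79b and Siglece, are of genes that passed the filter only through the group where they are high and say nothing about stability. The other 4 were Clec11a in P-SSCs and in grafts against BM-MSCs, and Fcgr3 and Gbp7 in grafts against BM-MSCs, lost in 11, 6, 9 and 10 alternatives. A filter of 5 FPKM left 2 members called in P-SSCs and 6 in grafts against BM-MSCs, because fewer members were tested. Leaving out a library gave 4 to 6, 4 to 5 and 7 to 11 member calls in P-SSCs against BM-MSCs, grafts against P-SSCs and grafts against BM-MSCs, and 399 to 593, 450 to 892 and 555 to 1038 calls over all genes. With only the compared groups in the fit, 324, 645 and 1068 genes were called, and with the replicate number as a block 5, 4 and 8 members and 441, 621 and 755 genes. Under the block the calls of Fcgr3 and Gbp7 in grafts against BM-MSCs (adjusted p = 0.067 and 0.072) were lost. Of the listed genes the block ended the calls of Isg20 and Cxcl2 in P-SSCs against BM-MSCs (0.069 and 0.051), of Adgre1 and Spi1 in grafts against P-SSCs (0.051 and 0.052), and of Cmpk2, Socs1 and Rela in grafts against BM-MSCs (0.051, 0.059 and 0.056). Deviations of same-numbered libraries correlated at -0.43 to 0.13. The replicate numbers do not always follow the numbers in the source labels. Neither these correlations nor the block can therefore show whether libraries shared mice, and no pairing was assumed.

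Differences that changed sign were all outside the calls, and the cause was not tested. With quantile normalization they were Siglece (-0.060), H2-Aa (-0.16), Cd79b (-0.032) and Fcgr2b (-0.010), and with median-of-ratios scaling Cd164 (-0.082), all in grafts against P-SSCs. Leaving out each library in turn moved P-SSCs against BM-MSCs between -0.36 and 0.068 for Ifitm2 and between -0.011 and 0.84 for Fcgr2b. It moved grafts against P-SSCs between -0.28 and 0.13 for Clec16a, -0.27 and 0.98 for H2-Aa, -0.16 and 0.70 for Fcgr2b, -0.72 and 0.65 for Clec11a, and -0.11 and 0.17 for Gbp7. It moved grafts against BM-MSCs between -0.19 and 0.23 for Gbp3 and between -1.19 and 0.054 for H2-Aa. Depth limits the 16 members under 1 FPKM, which were tested only with no filter, where Cd69, Fcgr4 and Siglec1 were called.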

Other observations

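3 genes with member names but another biotype stood outside the set. Clec7a, annotated as a polymorphic pseudogene, a beta-glucan receptor of myeloid cells, was at 0.762, 0.719 and 1.0 FPKM in BM-MSCs, at 0 in the 3 P-SSC libraries and at 0.115, 0.0635 and 0.377 FPKM in graft P-SSCs. The processed pseudogene Cd63-ps was at 12.5 to 14.9 FPKM in BM-MSCs, 5.35 to 6.80 FPKM in P-SSCs and 11.3 to 11.7 FPKM in grafts, and its reads may come from Cd63, which was not analysed here. Oas1b was at 0.336, 0 and 2.45 FPKM in BM-MSCs, at 1.54, 0 and 0.149 FPKM in P-SSCs and at 1.89, 1.33 and 1.07 FPKM in grafts.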
